A study of Mus musculus with 10 samples.

Results

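Cytosolic ribosomal protein genes were followed in 10 RNA-seq libraries of mouse leukemia cells with and without induction of miR-139. Members were the protein-coding genes whose symbols begin with Rpl or Rps followed by a digit, or with Rplp, without pseudogene copies, without the S6 kinase genes, Rps19bp1 and Rpl22l1, and with at least 100 counts summed over the 10 libraries. Of 52550 genes in the count table, 83 had such a symbol and 75 passed the minimum of counts, 44 of the large and 31 of the small subunit.

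Each cytosolic ribosome carries 1 copy of nearly every one of these proteins, and their genes are therefore held at similar levels and move together in most cells. Their mRNAs begin with a run of pyrimidines (a TOP motif), through which the TOR pathway and the RNA-binding protein Larp1 control their translation. Blood-forming cells are known to be sensitive to the loss of single members, as in Diamond-Blackfan anemia and in the myelodysplastic syndrome with a deletion on chromosome 5q.

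The cells were hematopoietic stem and progenitor cells from C57BL/6 bone marrow, transformed with a retrovirus coding for the fusion oncoprotein MLL-AF9 and grown with SCF, GM-CSF, IL-6 and IL-3. All of them also carried the doxycycline-controlled repressor tetR-KRAB, and either a lentiviral miR-139 transgene (MLL-AF9-i139) or an inducible eGFP (MLL-AF9-ieGFP). The MLL-AF9-i139 libraries came from 3 clones, each without DOX (3 libraries) and with 5 µg/mL DOX (3 libraries), given for 48 h to clones 1 and 2 and for 72 h to clone 3. No time was given for the untreated i139 libraries, and dose time and clone cannot be told apart. The MLL-AF9-ieGFP libraries came from 1 clone at 48 h and 72 h, 2 without and 2 with 5 µg/mL DOX, so that they are not separate clones, and their p-values rest on a spread pooled between the 2 times of this clone and the i139 clones.

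The libraries held 35133308 to 47089725 counts. The Mir139 gene had 0 counts in all 10 libraries, where 0 allows up to 3 counts, so induction could not be checked on the gene itself; mature microRNAs are not read by this type of library. Of 10 markers of transformed myeloid progenitors, 9 had 28648 counts or more in total and Itgam, which codes for CD11b, had 6. Their summed level was 2816 to 4357 CPM (counts scaled to library size with TMM factors) in untreated and 4298 to 6611 CPM in DOX-treated i139 libraries, and 2962 to 3730 CPM without and 3325 to 4776 CPM with DOX in ieGFP libraries. With the clone as a block Fcgr3, Mpo, Ctsg and Spi1 rose and Hoxa9 fell in i139 cells (edgeR), where 12.4% of all genes passed. In both ieGFP pairs Mpo (log2 fold changes 0.43 and 0.53) and Ctsg were also higher with DOX, and Fcgr3 and Spi1 were lower. The part of these markers in the results was not tested. The summed T cell, B cell, erythroid and megakaryocyte markers stayed at 2.58 CPM or less in every library, with Ms4a1, Hbb-bs and Ppbp at 0, and of the stromal list Col3a1 was at 0 while Pecam1 gave most of the 17.7 to 38.2 CPM.

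The induced microRNA is shown first, because the comparisons turn on it. Both mature strands of mouse miR-139 lie on chromosome 7 (RefSeq, GRCm38.p6, plus strand), the 5p strand at chr7:101475382-101475403 and the 3p strand at chr7:101475418-101475439. Capitals mark the seed, bases 2 to 8, which pairs with target mRNAs.
mmu-miR-139-5p: uCUACAGUgcacgugucuccag
mmu-miR-139-3p: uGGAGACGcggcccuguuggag

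A match to the 5p seed (ACTGTAG, plus strand of the mRNA only) was found in an annotated 3′ UTR of 5 of 75 members, 6.67%, against 1852 of 14012 other protein-coding genes tested, 13.2%. The longest annotated 3′ UTR of a gene had a median of 160 bases among members and 1074 bases among the others. Counted per 1000 bases of these UTRs, members had 0.162 matches and the other genes 0.0988. The member value rests on 5 matches, in genes whose longest annotated 3′ UTR had 638 (Rpl27a) to 3167 bases (Rps20). Which annotated UTR these cells use was not tested. A match to the 3p seed (CGTCTCC) was in 0 members and in 3.88% of the other genes. The 5 sites are printed with the match in capitals (GRCm38, GENCODE M21 transcripts). Shorter matches, and matches outside the annotated 3′ UTRs, were not searched.
Rpl21, chr5:146835996-146836024, plus strand: gttttccttagACTGTAGtgtggggtttg
Rpl22, chr4:152333481-152333509, plus strand: gaggtcccaacACTGTAGggtgctcctgt
Rpl27a, chr7:109522256-109522284, plus strand: tggttgggaatACTGTAGaaccagagctg
Rps20, chr4:3833522-3833550, minus strand: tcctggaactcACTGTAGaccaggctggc
Rps24, chr14:24496158-24496186, plus strand: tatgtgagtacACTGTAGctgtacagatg

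A letter match is a description and not a binding site. The 5 genes with a match had log2 fold changes of DOX against no DOX in MLL-AF9-i139 between -0.08 for Rps20 and 0.14 for Rps24, and none passed the test described next.

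RefSeq start sites were at hand for 55 of 75 members, with 65 starts in all. Among those without were Rpl17, Rpl21, Rpl23a, Rpl29, Rpl3, Rpl30, Rpl32, Rpl36, Rpl7, Rpl8, Rplp1, Rps14, Rps20, Rps27a and Rps29. A run of at least 8 C or T bases that opens with C, on the sense strand and within 20 bases of the start, was at 46.2% of member starts and at 17% of all 32851 starts in the table. It was at 21.3% of the 75 starts of mitochondrial ribosomal protein genes. The letters CCGGAAG, the core of many ETS family sites, were within the 300 bases from 250 before to 50 after the start, on either strand, at 36.9% of member starts and 8.86% of all starts. Mitochondrial ribosomal protein genes had it at 34.7% of starts, and genes tested in the DOX comparison at 14.8%. The windows below run from 12 bases before the start through 18 bases of the transcript, 5′ to 3′ on the gene's strand, with the pyrimidine run in capitals. The first 4 hold a run, and the last 3 hold none near the annotated start. Rpl7a and Rpl13a, with a run, and the last 3, without, are all among the highest or lowest members in the DOX comparison.
Rps6, chr4:86857350-86857379, minus strand: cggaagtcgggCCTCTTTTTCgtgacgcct
Rps27, chr3:90213631-90213660, minus strand: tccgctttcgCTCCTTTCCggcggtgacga
Rpl7a, chr2:26910795-26910824, plus strand: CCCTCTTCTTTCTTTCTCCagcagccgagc
Rpl13a, chr7:45128728-45128757, minus strand: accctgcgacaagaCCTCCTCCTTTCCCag
Rps28, chr17:33824545-33824574, minus strand: accgcgtgcggtctcgcgagagcgaaagtg
Rps23, chr13:90923110-90923139, plus strand: ttcggctgggcggggcttcccgcaatgcct
Rps2, chr17:24720051-24720080, plus strand: cagtcgagatctcgcgcttcttggagcact

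In the DOX comparison in MLL-AF9-i139 the median (log2) was 0.08 over the 28 members with a run and 0.11 over the 27 without. No match in such a window says only that these letters are not there.

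Together the 75 genes took about 4% of all counts, and this share differed between untreated clones as much as between treatments. Without DOX the share was 3.90% in i139 clone 1, 4.29% in clone 2 and 3.89% in clone 3 (mean 4.03% ± 0.231, SD, n = 3). With DOX it was 4.13%, 4.34% and 4.22% (mean 4.23% ± 0.102, SD, n = 3). Clones 1 and 3 were higher with DOX by ratios of 1.06 and 1.09, clone 2 by 1.01, and the ranges of the treated and untreated groups overlapped because untreated clone 2 stood above treated clones 1 and 3. Untreated ieGFP cells gave shares of 4.23% at 48 h and 4.22% at 72 h, and treated ones 4.19% and 4.47%. The highest of all 10 libraries was thus the ieGFP library with DOX at 72 h, which holds no miR-139 transgene. In these bulk libraries fewer cells of a type and less RNA per cell cannot be told apart.

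**Figure D1:**
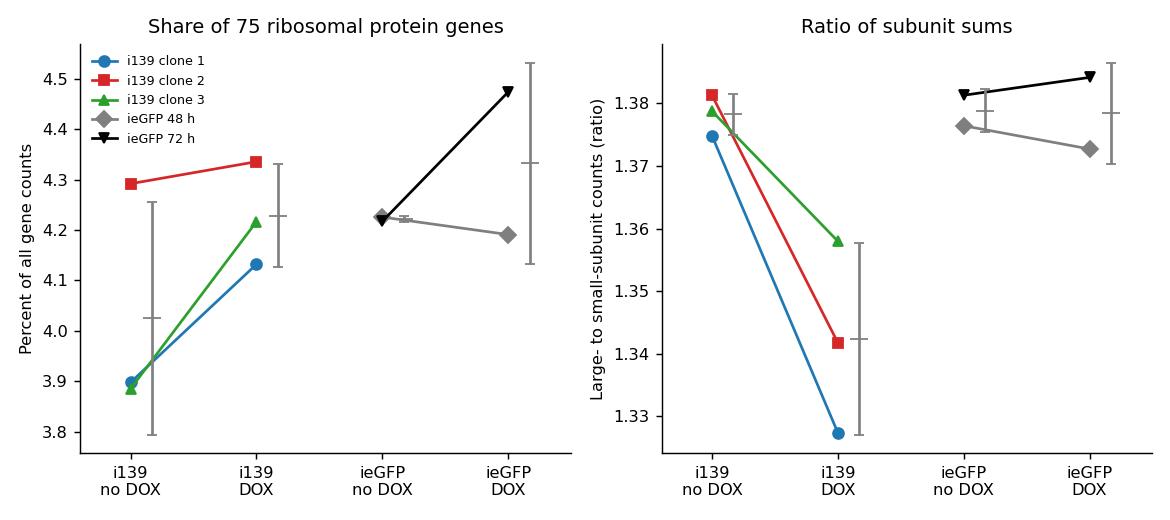
The left panel plots the percent of all gene counts taken by 75 ribosomal protein genes in each library and the right panel the ratio of large- to small-subunit counts; colored points joined by a line are 1 clone or time without and with DOX, and grey marks are the group mean and SD (n = 3 for i139, n = 2 for ieGFP; both vertical axes start above 0). The share overlapped between treatments (3.89 to 4.29% against 4.13 to 4.34% in i139). The ratio of every treated i139 library (1.33 to 1.36) lay below every untreated library of either construct (1.37 to 1.38). The treated ieGFP library at 48 h (1.373) also lay below every untreated library (lowest 1.375), and the one at 72 h (1.384) lay above them.

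The ratio of large- to small-subunit counts differed in the same direction in each i139 clone. These sums cover the members only and are not a measure of whole subunits. The symbol rule leaves out Rpsa (mean 1604 CPM over 10 libraries), Fau and Rack1, and Rpl13, Rpl24, Rpl35 and Rpl35a had 0 or 1 count. Large-subunit counts were 1.37, 1.38 and 1.38 times the small-subunit counts in untreated clones 1, 2 and 3, and 1.33, 1.34 and 1.36 times in the same clones after treatment. At 48 h and 72 h, untreated ieGFP cells had ratios of 1.38 and 1.38 and treated ones 1.37 and 1.38. The i139 groups did not overlap and the ieGFP groups did. Without the 10 members of the highest and lowest fold changes, the ratio was 1.44, 1.44 and 1.45 in untreated and 1.39, 1.42 and 1.43 in treated clones 1, 2 and 3, again with no overlap. No test was run on these sums, since the genes had been chosen with results known. The median log2 fold change was 0.06 over the large-subunit and 0.11 over the small-subunit genes.

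Whether induction of miR-139 moved single members was asked by comparing the 3 treated with the 3 untreated i139 libraries (edgeR quasi-likelihood test over 19223 genes, Benjamini-Hochberg). No member passed an adjusted p of 0.05, and 12 genes of all tested did, 0.0624%. At an unadjusted p under 0.05 there were 5 members, against 3959 genes of all tested, 20.6%, so that this share was lower among the members (6.67%) than in the whole table. The lowest adjusted p of a member was 0.161. DESeq2 called 1556 genes, 8.09%, and again 0 members. In this fit without a block, the standard errors of the log2 fold changes had a median of 0.101 over the members. The standard errors were derived from the F statistics. Differences of the size seen for most members were therefore not detectable in this fit with 3 clones. With the clone as a block the median standard error was 0.0735.

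The clone as a block gave 1 call among the members. In that fit 2381 genes passed, 12.4%, and 1 member, Rps27a, rose (log2 fold change 0.33, adjusted p = 0.0408, edgeR with block). Without clone 3, the one treated for 72 h, 3981 genes (21.7%) and 2 members passed, among them Rps27a upward (log2 fold change 0.39, adjusted p = 0.0255, edgeR).

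Although single members did not pass, more of their fold changes lay above than below 0. The median over the 75 was 0.09, with 58 above and 17 below 0, whereas the median of all genes tested was 0.01, with 51.2% of them above and 48.8% below 0. Of the members, 41 (54.7%) were higher with DOX in each of the 3 clones, against 27.2% of all genes. Only 7 members (9.33%) were lower in each clone, against 26.5% of all genes, namely Rplp1, Rpl13a, Rpl27, Rpl7a, Rps27l, Rpl10a and Rpl3. Groups without overlap were rarer among members than among all genes: in 4 members (5.33%) every treated library was above every untreated one, against 12% of genes, and in 1 (1.33%) every treated library was below, against 12.8%.

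The size of the common difference depended on the clone. On the log2 scale the members' median was 0.09 for clone 1, 0.01 for clone 2 and 0.10 for clone 3, and 56, 43 and 68 of 75 members were above 0. The median of 2313 other genes of at least 100 CPM was -0.08, -0.05 and -0.02 in the same pairs. Members were also held closer together than those genes, with standard deviations of 0.14, 0.18 and 0.07 on the log2 scale for the 69 with under 50% of their exons inside other genes, against 0.46, 0.47 and 0.21. The members share libraries and are not replicates of the treatment.

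**Figure D2:**
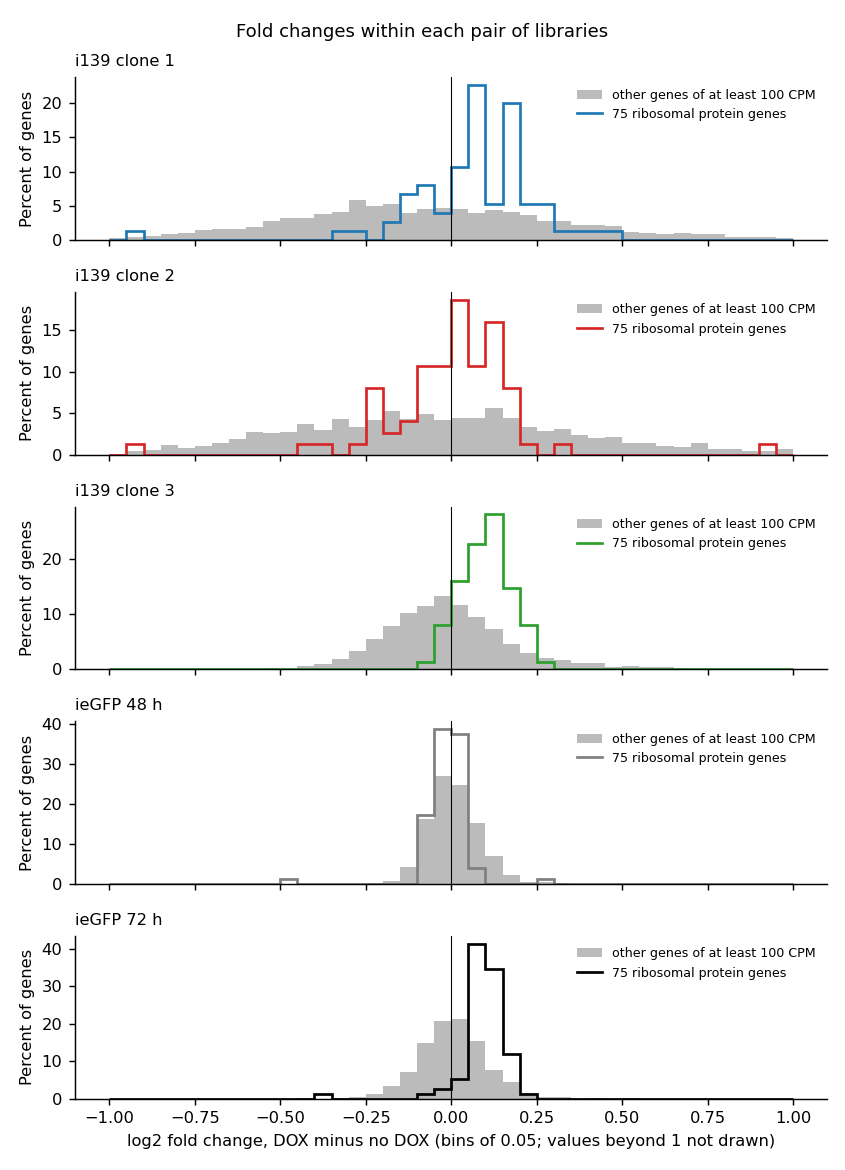
Each panel is 1 pair of libraries, with the log2 fold change of DOX against no DOX on the horizontal axis and the percent of genes in bins of 0.05 on the vertical axis; the colored line is the 75 ribosomal protein genes and the grey area the other genes of at least 100 CPM. Members form a narrow peak right of 0 in clones 1 and 3 and in ieGFP at 72 h (medians 0.09, 0.10 and 0.10), and a peak near 0 in clone 2 and in ieGFP at 48 h (0.01 and -0.01).

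Differences of this size also stood between libraries that received no DOX. Untreated clone 2 was above untreated clone 1 in 74 of 75 members, with a median difference of 0.21 on the log2 scale, and above untreated clone 3 in 74 of 75, with 0.16. Untreated clone 1 was below untreated clone 3 by a median of -0.06, with 61 members lower. In treated ieGFP cells the 72 h library was above the 48 h library in 74 of 75 members (median 0.14), and in untreated ieGFP cells in 48 of 75 (median 0.03). The untreated difference between clones 2 and 1 was thus larger than any clone's DOX difference.

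The control construct gave a common difference of similar size at 1 of its 2 times. In MLL-AF9-ieGFP, no member and no gene of 20269 passed (0%, edgeR; 0 members and 259 genes at an unadjusted p under 0.05; DESeq2 called 1 gene, no member). The median log2 fold change over members was 0.05 with 68 of 75 above 0, against 51.9% of all genes. It was -0.01 in the 48 h pair, with 32 members above 0, and 0.10 in the 72 h pair, with 71 above 0. Fitted without the 72 h libraries the median was 0.00 (-0.0032 unrounded), and without the 48 h libraries 0.08. The difference between the constructs, tested as an interaction, passed for 1 gene of 20269 (0.00493%) and for 0 members (edgeR). At an unadjusted p under 0.05 there were 0 members, against 1859 genes of all tested (9.17%). DESeq2 called 83 genes and 0 members. The median of the interaction over members was 0.03. The clone or time as a block gave 38 calls over all genes (0.187%) and 0 among members.

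Before any DOX, members were lower in i139 than in ieGFP cells. The median log2 difference was -0.09, with 74 of 75 below 0, where 47% of all genes were below 0. No member passed, and 9 of 20269 genes did (0.0444%, edgeR). At an unadjusted p under 0.05 there were 0 members, against 503 genes of all tested (2.48%). DESeq2 called 44 genes and 0 members. Untreated clone 2, at 4.29% of counts, stood with the untreated ieGFP libraries at 4.22 and 4.23%, while clones 1 and 3 were below. Without clone 2 the median difference was -0.16, and without clone 1 it was -0.04. The treated i139 and treated ieGFP groups are compared with these same untreated libraries, so the comparisons are not independent.

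**Figure D3:**
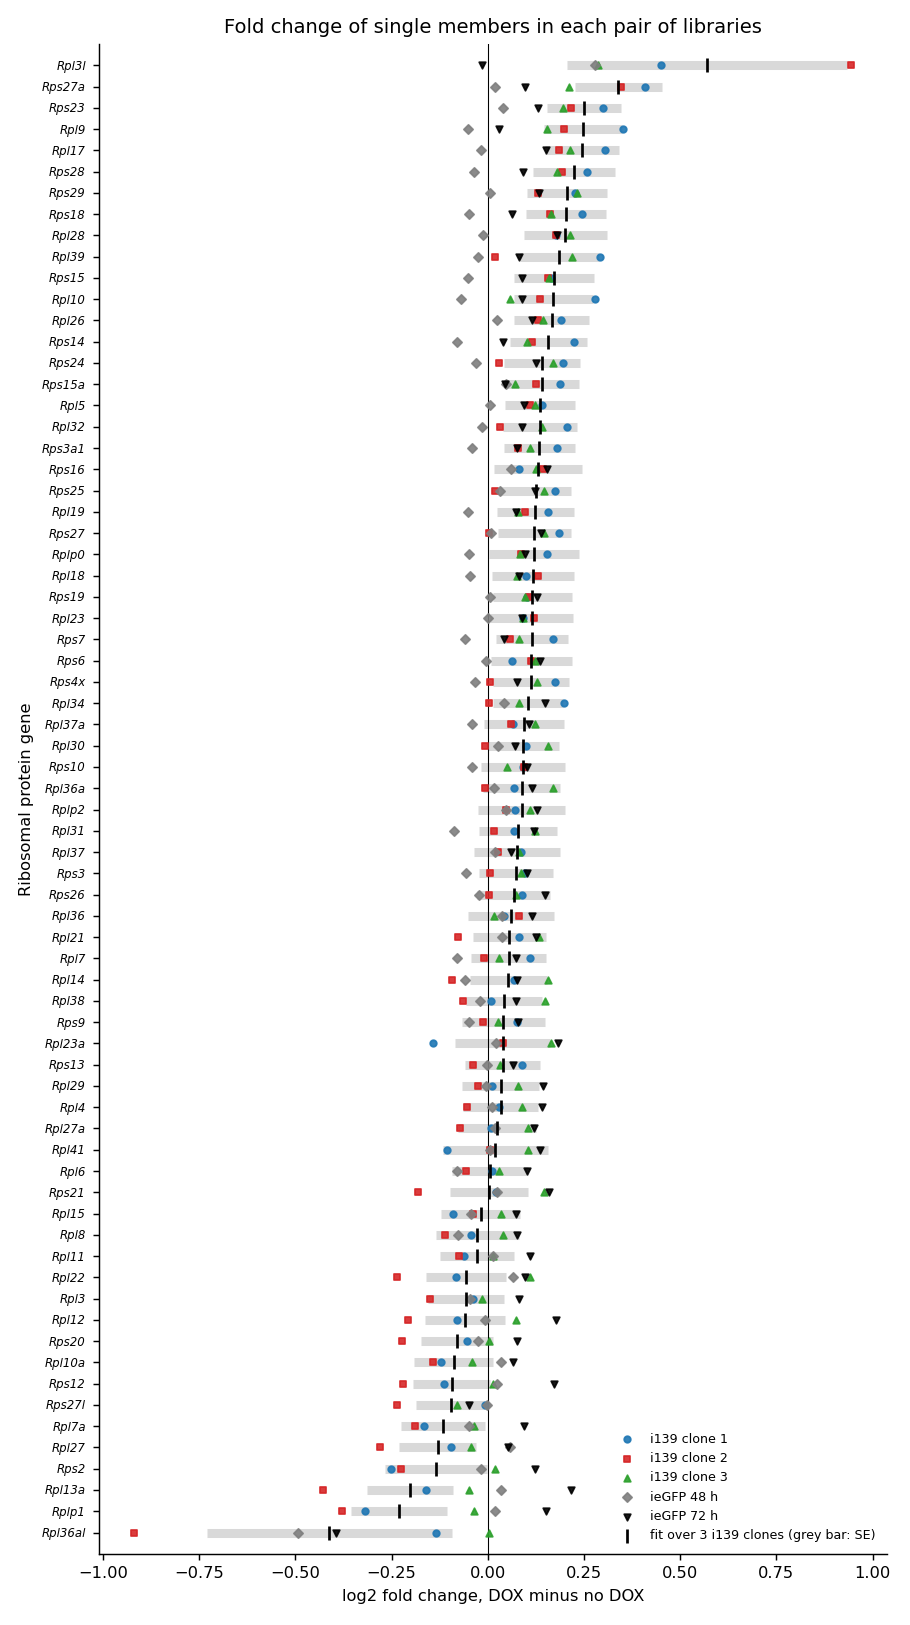
Each line is 1 of 70 ribosomal protein genes, ordered by its fitted log2 fold change in MLL-AF9-i139 (black tick, with the standard error as a grey bar); colored points are the log2 fold changes of the single pairs (3 i139 clones, and ieGFP at 48 h and 72 h) on the horizontal axis. All but 12 of the 350 points lie within 0.3 of 0, and Rpl36al stands at the lower end at -0.41, with clone 2 at -0.92 and clone 3 at 0.00.

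Among members of at least 1 CPM, the upper end of the order was led by Rps27a, which codes for ubiquitin fused to a small-subunit protein. Its level was 569.5, 618 and 549 CPM in untreated clones 1, 2 and 3, and 755 and 786 CPM in treated clones 1 and 2 and 636 CPM in treated clone 3. All 3 treated libraries were above all 3 untreated ones, although treated clone 3 exceeded untreated clone 2 only slightly. The log2 fold change was 0.34 ± 0.11 (SE; adjusted p = 0.161, edgeR). In ieGFP cells it was at 597 and 593 CPM without and 605 and 635 CPM with DOX.

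Rps23, a protein at the decoding center of the small subunit, had 530.4, 598 and 551 CPM without DOX in clones 1 to 3 and 652, 695 and 631 CPM with DOX. Rpl9, a large-subunit protein, had 518, 585 and 531 CPM without and 661, 672 and 590.3 CPM with DOX. For Rpl17, which lines the exit tunnel, the levels were 617, 708 and 649.6 CPM and then 762, 804 and 754 CPM. None of the 3 overlapped between treatments, with log2 fold changes of 0.25, 0.25 and 0.25 (adjusted p = 0.199, 0.219 and 0.206, edgeR). The ieGFP clone had 558 and 586 CPM of Rps23 without and 574 and 641 CPM with DOX, a log2 fold change of 0.09, and its interaction of 0.15 did not pass (adjusted p = 0.723, edgeR).

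Rps28, of the small subunit, followed with a log2 fold change of 0.22 (adjusted p = 0.279, edgeR). Its untreated levels of 304, 352 and 303 CPM overlapped with the treated 364, 402 and 343 CPM, through untreated clone 2 and treated clone 3. Rpl9 had the second largest interaction value of these 5 after Rps27a, 0.24 against 0.27, and neither passed (adjusted p = 0.602 and 0.600, edgeR).

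At the lower end, again of at least 1 CPM, stood Rplp1, an acidic protein of the stalk that recruits translation factors. It had 762, 928 and 791 CPM in untreated and 611, 714 and 771 CPM in treated clones 1 to 3, and was lower within each clone, but the treated clone 3 value lay between those of untreated clones 1 and 3. The log2 fold change was -0.23 ± 0.12 (SE; adjusted p = 0.329, edgeR), made up of -0.32, -0.38 and -0.04 by clone. In ieGFP cells Rplp1 was at 859 and 897 CPM without and 870.05 and 996 CPM with DOX, higher in both pairs. The interaction was -0.33 (adjusted p = 0.586, edgeR, and 0.188 with block).

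The partners of Rplp1 in the stalk lay on the other side of 0. Rplp0, the base of the stalk, had a log2 fold change of 0.12 (1476, 1739 and 1469 CPM without and 1643, 1846 and 1557 CPM with DOX). Rplp2, the second acidic protein, had 0.09 (314, 373 and 309.7 CPM without and 329.7, 386 and 334 CPM with DOX). Both were higher with DOX in every clone and neither passed (adjusted p = 0.600 and 0.702, edgeR).

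Rpl13a, a large-subunit protein also known from translational silencing in macrophages, was the 1 member with every treated library below every untreated one. Its levels were 42.3, 50.2 and 43.2 CPM without and 37.9, 37.4 and 41.8 CPM with DOX (log2 fold change -0.20, adjusted p = 0.342, edgeR). These levels are low for the family. Of the exon bases of Rpl13a, 82.8% lie inside other annotated genes, introns included, and 35.4% inside their exons. How reads in shared bases were counted was not stated. Rps2, of the small subunit near the mRNA entry, had 1408, 1669 and 1569.8 CPM without and 1184, 1426 and 1589.8 CPM with DOX (-0.13). Rpl27 and Rpl7a of the large subunit followed at -0.13 and -0.12, and the adjusted p of these 3 lay between 0.496 and 0.606 (edgeR).

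**Figure D4:**
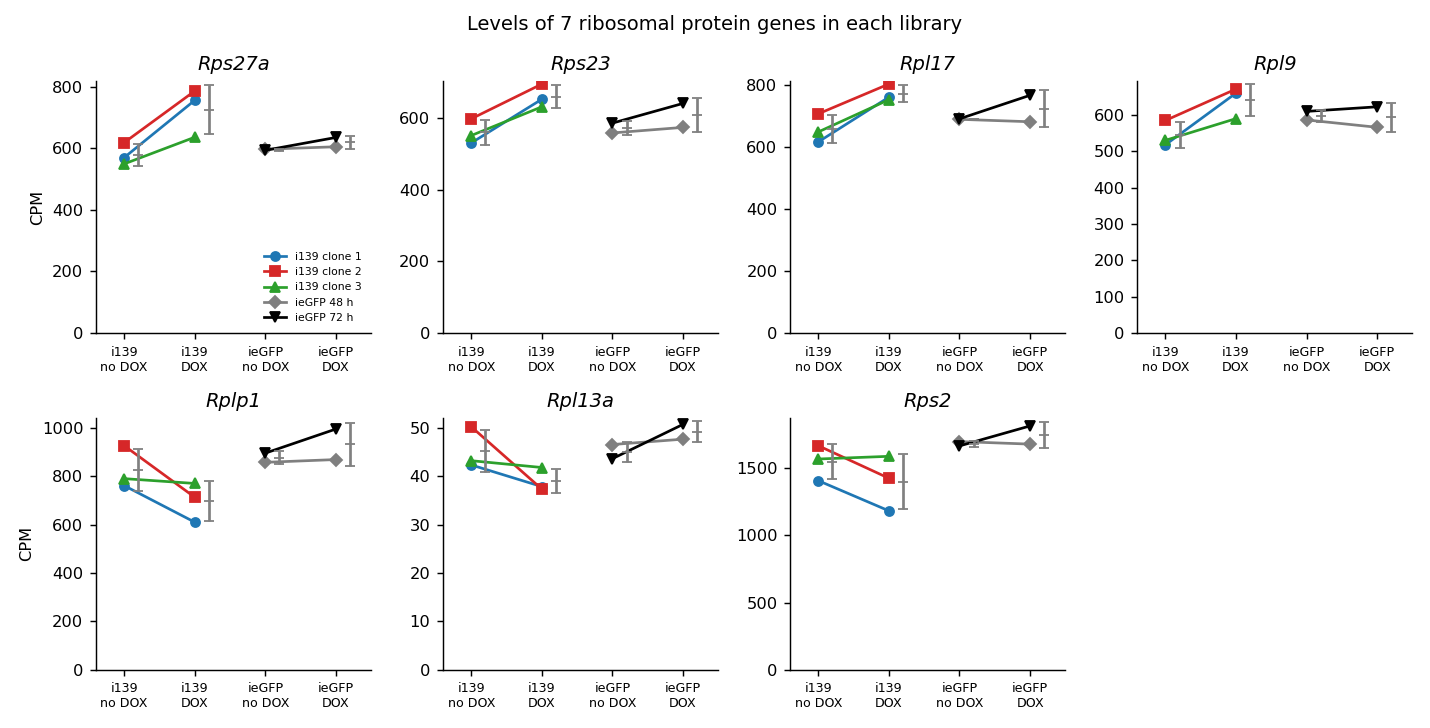
Levels in CPM (vertical axes, from 0) of 7 ribosomal protein genes in the 10 libraries; colored points joined by a line are 1 clone or time without and with DOX, and grey marks are the mean and SD of each group (n = 3 for i139, n = 2 for ieGFP). Rps27a, Rps23, Rpl17 and Rpl9 were higher in all treated i139 libraries, Rpl13a was lower, and Rplp1 and Rps2 overlapped.

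Among the members known from anemia and leukemia, log2 fold changes lay between -0.03 and 0.16, on both sides of the family median of 0.09. Rps19, the gene most often mutated in Diamond-Blackfan anemia, had 449, 510.0 and 450.1 CPM without and 482, 549 and 482 CPM with DOX (log2 fold change 0.12). Rpl5 and Rpl11, which with 5S rRNA bind the p53 ligase MDM2, had 0.14 and -0.03. Rpl5 was at 539.9, 595 and 558 CPM without and 595, 642 and 607 CPM with DOX, which overlap narrowly. Rpl11 was at 470.3, 532 and 494 CPM and then 451, 505 and 498 CPM, with full overlap. Rps14, the gene of the 5q deletion, had 0.16 and Rps26, another gene of Diamond-Blackfan anemia, had 0.07. Rps6, the substrate of the S6 kinases downstream of TOR, had 0.11 (445, 507 and 451 CPM without and 465, 548 and 491 CPM with DOX). The adjusted p of these 6 lay between 0.406 and 0.898 (edgeR).

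By reads, the highest members were Rplp0, Rps2 and Rpl4, at means of 1658, 1571 and 1435 CPM over 10 libraries. Rpl4, a protein of the exit tunnel, had a log2 fold change of 0.03 in i139. Per kilobase of annotated exon the order was another: Rplp1 led with 1643 CPM per kilobase, then Rps15, chosen after its values were seen, with 1069 and Rplp0 with 999.5. The median level was 521 CPM, and the lower and upper quartiles were 347 and 701 CPM.

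Paralogues of the members were lower than their partners, or at 0. Rps27l, a p53-inducible copy of Rps27, had a mean of 105 CPM in untreated and 97.2 CPM in treated i139 cells, against 245 and 264 CPM for Rps27. Its log2 fold change was -0.10 and that of Rps27 0.12 (adjusted p = 0.581 and 0.503, edgeR). Rpl3l, the form of heart and skeletal muscle, had 10 to 29 counts per library. Its log2 fold change was the most upward of all members, 0.57 ± 0.36 (SE, adjusted p = 0.410, edgeR), beside -0.06 for Rpl3. Its 3 untreated levels of 0.430, 0.228 and 0.532 CPM overlapped with the treated 0.606, 0.483 and 0.660 CPM. Rpl10l and Rpl39l, known from testis, had 0 counts over 10 libraries, where 0 allows up to 3, while Rpl10 (0.17) and Rpl39 (0.19) were among the upper members. Rps4l, annotated as a transcribed pseudogene, also had 0 counts, beside 761 and 815 CPM for Rps4x. Rpl22, which is important for T cell development, had -0.06, and its paralogue Rpl22l1 0.24 (43.2 and 50.6 CPM; adjusted p = 0.399, edgeR).

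Some members and candidates had few or no counts and lay largely inside other genes. Of the 83 candidates, 12 had at least 50% of their exon bases inside other annotated genes, introns included. Of these 12, 5 had 0 counts, against 2 of the 71 others. The 5 were Rpl13 inside Gm20388, Rpl35 inside Wdr38 and Arpc5l, Rpl35a inside Gm17106, Rpl7l1 inside Gm26904 and Rps27rt inside Osbpl10, and Rpl24, mostly inside Gm28037, had 1 count. Rpl13, Rpl24, Rpl35 and Rpl35a are parts of every cytosolic ribosome. Over 10 libraries the overlapping genes held 642 counts for Osbpl10, 1042 for Wdr38, 1684 for Gm28037, 2754 for Gm17106, 5865 for Gm26904, 14394 for Arpc5l and 36735 for Gm20388, where candidates under 50% overlap had a median of 222121. These genes were named after their values were seen. A zero of this kind says nothing of expression, and since the counting options for overlapping genes were not stated, their part in it was not tested.

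**Figure D5:**
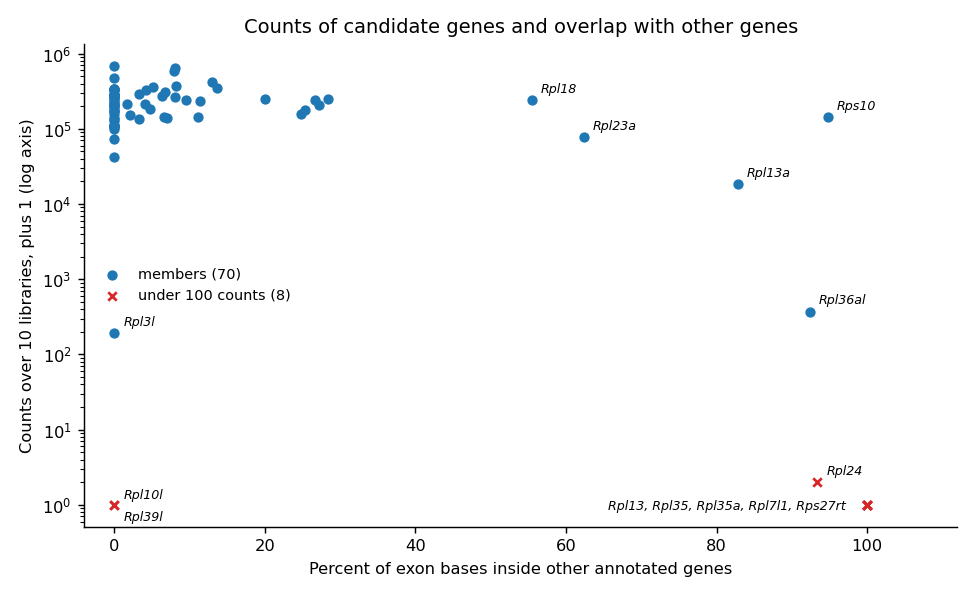
Each point is 1 candidate gene, with the percent of its exon bases inside other annotated genes, introns included, on the horizontal axis. The vertical axis is its counts over 10 libraries plus 1, on a log scale. Blue circles are 70 members and red crosses the 8 genes under 100 counts. Genes with little overlap mostly lie near their median of 222121 counts, and the 8 with under 100 counts lie at 93.4% overlap or more except Rpl10l and Rpl39l.

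High overlap also marked a member at the lower end of the order. Rpl36al, with 92.4% of its exon bases inside Gm49383 and 24.5% inside the exons of that gene, had 369 counts in total. It had 0.738, 1.44 and 0.837 CPM in untreated and 0.668, 0.737 and 0.838 CPM in treated clones 1 to 3, which overlap, and a log2 fold change of -0.41 ± 0.32 (SE; adjusted p = 0.498, edgeR), beside 0.09 for Rpl36a. Whether these values come from Rpl36al itself or from reads of the gene around it was not tested. High overlap did not always go with low counts. Rps10, with 94.8% of its exon bases inside RPS10-NUDT3 and Gm15420 and 28.7% inside their exons, had 144213 counts. Named pseudogene copies of the family took little, 55628 counts over 150 of 282 copies, 0.321% of the members' 17313815, but reads that fit a copy equally well leave single members uncertain.

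Ribosomal proteins under other symbols included several within the range of the family. Fau, which codes for a ubiquitin-like protein fused to a small-subunit protein, had 339 and 398 CPM without and with DOX in i139 cells (log2 fold change 0.25, adjusted p = 0.278, edgeR). Rack1, a scaffold on the small subunit, had 850.2 and 879.5 CPM (0.06, adjusted p = 0.782, edgeR). The levels of Rpl22l1, also on the list, are given above. None of the 4 genes of the list passed in any comparison (edgeR and DESeq2, 0 also at an unadjusted p under 0.05). In i139, 0.0624% of all genes passed by edgeR and 8.09% by DESeq2, and 20.6% had an unadjusted p under 0.05. For a list of 4 genes a count of 0 says little beside these shares. Rpsa, outside both the symbol rule and this list, had 1520 and 1581 CPM (0.07, adjusted p = 0.746, edgeR).

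Other gene groups of translation did not share the upward median. Of 72 mitochondrial ribosomal protein genes tested, 12 were above 0 in the i139 comparison, with a median of -0.26, while 0 passed (edgeR; 30 at an unadjusted p under 0.05 and 11 by DESeq2, where 20.6% and 8.09% of all genes did). With the clone as a block Mrpl44 rose and 16 fell, among them Mrpl15, Mrps5 and Mrpl12, where 12.4% of all genes and 1 cytosolic member passed. In ieGFP cells the median of the mitochondrial list was -0.02 and 25 of 72 were above 0. Translation factors and other genes with TOP mRNAs had a median of -0.11, with 3 of 17 above 0. Eef1a1 and Eef2, the elongation factors, had -0.06 and -0.05, and Tpt1 (0.23) and Eif3f (0.22) lay near the upper ribosomal proteins (adjusted p from 0.257 to 0.839 for the 4, edgeR). None of the 17 passed without the block (edgeR; 5 at an unadjusted p under 0.05 and 4 by DESeq2), and Eef1d, Npm1, Hnrnpa1, Nap1l1 and Vim fell with it (5 of 17), beside 20.6%, 8.09% and 12.4% of all genes in the same 3 counts. Npm1, a nucleolar protein of ribosome assembly, had 1154 and 718 CPM (-0.67; adjusted p = 0.133, and 0.0282 with block, edgeR).

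Chaperones that carry ribosomal proteins to the assembling ribosome were lower in all 8 tested members of their list, with a median of -0.43. By edgeR 0 passed, 4 had an unadjusted p under 0.05, and DESeq2 called 3. With the block Grwd1, Heatr3, Tsr2 and Nap1l1 fell (4 of 8), of which Nap1l1 is also counted among the genes with TOP mRNAs above. Of all genes 20.6% had an unadjusted p under 0.05, 8.09% were called by DESeq2 and 12.4% with the block. Grwd1, the chaperone of Rpl3, had 61.7 CPM without and 35.5 CPM with DOX (log2 fold change -0.79; adjusted p = 0.0955, and 0.0219 with block, edgeR), while Rpl3 itself had 1015 and 967 CPM. Tsr2, the chaperone of Rps26, had 29.7 and 19.1 CPM (-0.63; adjusted p = 0.228, and 0.0355 with block, edgeR), while Rps26 had 651 and 676 CPM. In ieGFP cells the median of the chaperones was -0.03, and 0 passed by either tool (0 at an unadjusted p under 0.05, beside 1.28% of all genes). Pdcd2 had 0 counts and was not tested. The genes that control TOP mRNAs through TOR had a median of -0.06 with 5 of 14 above 0. Larp1, the repressor of TOP mRNAs, had -0.28 (681 and 555 CPM, adjusted p = 0.315, edgeR) and Mtor -0.05, and Larp4 alone fell with the block. Without it 0 of the 14 passed (edgeR; 1 at an unadjusted p under 0.05 and 0 by DESeq2).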

How the data were processed

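Total RNA was depleted of rRNA, sequenced and, per the study's methods and the labels, checked with FastQC 0.11.8, aligned with STAR 2.5.3e to GRCm38 and counted on GENCODE M15 with featureCounts 1.6.0. Its strand and overlap settings are not given in the sources used here. The authors deposited whole-number read counts per gene, not normalized, in 2 tables with the same values. 14 columns of other samples were not used. Gene names, exons and overlaps came from GENCODE M21, a later release on GRCm38 that matched 52403 of 52550 genes.

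Genes with at least 10 counts in the fitted libraries were tested with edgeR 4.0.16 (TMM, quasi-likelihood F test, R 4.3.3). The i139 comparison used its 6 libraries, and the others 1 fit of 4 groups over 10 libraries. P-values were adjusted over all genes tested, with a threshold of 0.05. CPM used TMM-scaled library sizes, and fold changes of single pairs a prior count of 2. The fits were tested on simulated data. Depth limits the values under 1 CPM.

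Members and lists were chosen with earlier results of these data known. Named were the 5 highest and lowest members of at least 1 CPM in the i139 comparison, paralogue pairs, stalk proteins, 6 disease or TOR-linked genes, the 3 most abundant, and any called. Clone numbers pair the i139 libraries: deviations of the same clone correlated at 0.356, 0.269 and 0.393 and of different clones at -0.297 to -0.0382. Alternatives were DESeq2 1.42.0, RLE factors, TMM without the members, other filters, other libraries in the fit, the block and leaving out each clone or time. Restricting the members to those under 50% overlap was chosen after seeing the data. Some genes are not reported here.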

Additional observations from a re-analysis of the deposited data

How the results depend on the processing

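In MLL-AF9-i139, 0 members passed under DESeq2, RLE factors, TMM without the members, both filters, the fit of all 10 libraries and with members restricted to those under 50% overlap. With the clone as a replicate block 1 passed (Rps27a), in which each clone is compared with itself. Leaving out 1 clone gave 0 to 2 members, and the 2 came without clone 3. The block changed no other call of a member. In the other 3 comparisons 0 members passed under every alternative run. The median over members stayed between 0.07 and 0.10 in i139 under all alternatives, and between -0.16 and -0.04 between the untreated groups. In ieGFP it was between 0.00 and 0.08 with 1 time left out, and for the interaction between -0.01 without the 48 h and 0.07 without the 72 h ieGFP libraries, so its sign rests on single libraries. Rpl22 turned from -0.06 to 0.0292 without clone 2, and ranged from -0.14 to 0.0292 with 1 clone left out. The number of genes called over the whole table depended far more on the fit: 12 in i139 as reported, 6 and 562 with the stricter and without the filter, 8 with RLE factors, 1234 in the fit of all libraries, 1556 by DESeq2, 2381 with the block and 0 to 3981 with 1 clone left out. For the interaction 1 gene was called as reported, 83 by DESeq2, 71 without the filter, 38 with the block and 0 to 2011 with 1 clone or time left out, and between untreated groups 9, 44 by DESeq2, 37 without the filter and 0 to 30. The cause of these differences was not tested. Depth limits the members under 1 CPM, such as Rpl3l and Rpl36al.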
